A study of Mus musculus with 9 samples.

Results

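Hippocampal gene expression was compared between mice given doxorubicin together with the mitochondria-targeted antioxidant MitoQ and mice given doxorubicin alone. The comparison takes 6 of the 9 libraries of the series, 3 per group, and covers every gene of the deposited count table except entries whose symbol had turned into a date. C57BL6/J mice gave the tissue, postmortem hippocampus, and its polyadenylated RNA was sequenced; the groups are doxorubicin injection with MitoQ supplementation, doxorubicin injection, and saline sham, with 3 libraries each. Both groups compared therefore carry the doxorubicin injection. The sham libraries enter the filter on low counts, the scaling and the estimate of spread but not the contrast. They are quoted beside the values for scale. The dose, route, duration, age and sex used, and whether the libraries come from separate mice, are not stated in the sources used here, so the p-values below measure the spread between these libraries, which may be partly technical.

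MitoQ is a ubiquinone joined to a lipophilic triphenylphosphonium cation, which the membrane potential draws into mitochondria, where the quinone is reduced and acts against lipid peroxidation. Doxorubicin is an anthracycline that poisons type II topoisomerases and undergoes redox cycling, in part at respiratory complex I, and oxidative stress is widely studied in its effects on heart and brain. The comparison asks what the antioxidant adds to the transcriptome of a tissue already exposed to doxorubicin.

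Total counts were 32432157, 41214335 and 38513481 in the doxorubicin plus MitoQ libraries and 25976775, 25525944 and 28050173 in the doxorubicin libraries. Genes that define hippocampal fields were present throughout: Prox1, Dsp and C1ql2 of dentate granule cells, Wfs1 and Fibcd1 of CA1, and Cpne4, Grik4 and Bok of CA3 lay between 44.9 and 236 CPM in the 6 libraries. CPM stands for counts per 1000000 counts of the library, after TMM scaling, a correction for composition. In bulk RNA, fewer cells of a type and less RNA per cell cannot be told apart. As a measure of likeness, the root mean square log2 difference between libraries was 0.215 to 0.251 among the doxorubicin plus MitoQ libraries, 0.347 to 0.394 among the doxorubicin libraries and 0.196 to 0.398 between the groups. Doxorubicin replicates 2 and 3 stood apart. Of 13867 genes, doxorubicin replicate 2 lay over 2-fold below all 5 other libraries in 77, and doxorubicin replicate 3 over 2-fold above in 17 and below in 30, against at most 4 genes on either side in the other 4 libraries.

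No gene was called. Of 15296 genes tested with edgeR's quasi-likelihood test, 0 (0%) had a Benjamini-Hochberg adjusted p under 0.05 and 0 under 0.1, and the smallest adjusted p was 0.265. At an unadjusted p under 0.05 there were 505 genes (3.3%), 287 higher with MitoQ (1.88%) and 218 lower (1.43%). DESeq2 called 5 genes, all higher with MitoQ, and limma-voom called 0, with 545 genes at an unadjusted p under 0.05. The 3 libraries of one group lay wholly above those of the other in 724 genes for MitoQ (4.73%) and wholly below in 762 (4.98%), and 49.9% of genes had a log2 fold change above 0.

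The fold changes were also bounded closely. The median absolute log2 fold change was 0.0766, and the 95% interval lay within 1.5-fold in either direction for 11677 genes (76.3%), and for 9669 of the 10021 genes that averaged 10 CPM or more (96.5%). Genes beyond a log2 fold change of 1 that averaged 1 CPM or more numbered 18, of which 13 were higher and 5 lower with MitoQ.

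**Figure D1:**
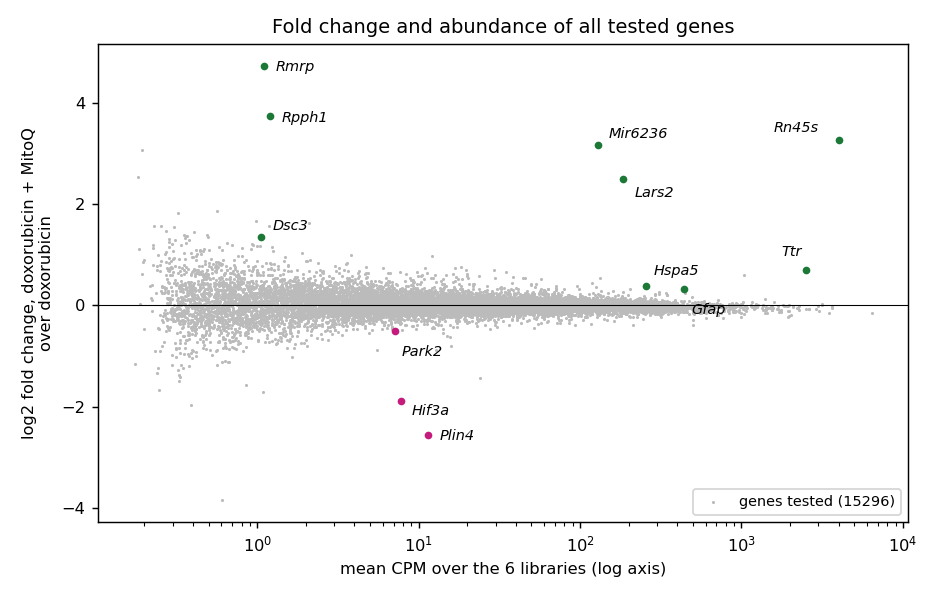
Log2 fold change of doxorubicin plus MitoQ over doxorubicin (vertical axis) against the mean CPM of the 6 libraries (horizontal, log axis), 1 grey point per gene for 15296 genes, with 12 named genes coloured. Nearly all abundant genes lie close to 0, and Rn45s (3.27), Mir6236 (3.16) and Lars2 (2.5) are the abundant entries far above it.

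The largest differences were in RNAs linked to ribosomal RNA and its processing. Rn45s is the entry for the precursor of ribosomal RNA, transcribed by RNA polymerase I. Rmrp and Rpph1 are the RNA subunits of RNase MRP and RNase P, which cut precursor ribosomal RNA and precursor transfer RNA and are transcribed by RNA polymerase III without a poly(A) tail. Lars2 encodes the leucyl-tRNA synthetase of mitochondria. Mir6236 is annotated as a microRNA hairpin on chromosome 9. The sequences of Rmrp and Rpph1 are shown because they carry the largest fold changes of the comparison in libraries selected for poly(A). Rmrp is shown whole (chr4:43492783-43493063, minus strand, GENCODE M21 on GRCm38), and of the 319 bases of Rpph1 positions 200 to 319 are shown (chr14:50807449-50807568, minus strand, GENCODE M21). Their longest runs of A are 3 and 2 bases.
Rmrp: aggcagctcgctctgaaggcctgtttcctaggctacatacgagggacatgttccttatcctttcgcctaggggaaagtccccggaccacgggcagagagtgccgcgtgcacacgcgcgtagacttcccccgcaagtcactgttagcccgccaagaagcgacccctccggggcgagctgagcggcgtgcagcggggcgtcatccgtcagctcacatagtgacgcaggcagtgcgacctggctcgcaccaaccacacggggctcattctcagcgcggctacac
Rpph1: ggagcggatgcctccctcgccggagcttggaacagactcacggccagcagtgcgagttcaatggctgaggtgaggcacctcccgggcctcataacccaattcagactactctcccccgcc

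Rn45s had 11499.6, 2042 and 8289 CPM in doxorubicin plus MitoQ, against 715, 656 and 887 CPM in doxorubicin alone, and 1822, 2167 and 1593 CPM in sham. The groups did not overlap, and MitoQ replicate 2 lay far below the other two MitoQ libraries and within the sham range. The log2 fold change was 3.27 (95% interval 2.21 to 4.34, adjusted p = 0.26). As a share of counts this is 1.13%, 0.207% and 0.819% of the doxorubicin plus MitoQ libraries and 0.0711%, 0.0651% and 0.087% of the doxorubicin libraries. The doxorubicin libraries thus lay below all 3 sham libraries, and 2 of the 3 MitoQ libraries above them.

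Mir6236 followed the same order. It had 313, 70.9 and 309 CPM with MitoQ, against 25.1, 20.5 and 31.9 CPM in doxorubicin alone and 60, 71.3 and 55.9 CPM in sham (log2 fold change 3.16, interval 2.14 to 4.17). Per 100 counts of Rn45s there were 2.72 to 3.72 counts of Mir6236 in the doxorubicin plus MitoQ libraries, 3.13 to 3.6 in the doxorubicin libraries and 3.29 to 3.51 in the sham libraries, so that the entries kept nearly the same ratio while their level differed between libraries. Ribosomal DNA is present in many near-identical copies, and how its reads were shared among entries is not stated in the sources used here, so the level of Mir6236 as a microRNA is uncertain.

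Lars2 had 432, 107 and 409 CPM with MitoQ, against 51.8, 46.8 and 68.7 CPM in doxorubicin alone and 106, 113 and 82.9 CPM in sham, a log2 fold change of 2.5 (interval 1.57 to 3.43, adjusted p = 0.42). The gene lies at chr9:123366927-123462675 (RefSeq, GRCm38.p6). Per 100 counts of Rn45s there were 3.76 to 5.23 counts of Lars2 in the doxorubicin plus MitoQ libraries. There were 7.13 to 7.75 in the doxorubicin libraries and 5.2 to 5.83 in the sham libraries, a ratio less even than that of Mir6236. Since how ribosomal reads were shared among entries is not stated, the level of Lars2 as a messenger RNA is uncertain too. The other mitochondrial aminoacyl-tRNA synthetases, chosen for comparison after Lars2 had been seen, did not show such values: of 16 tested, 7 were higher and 9 lower, with log2 fold changes between -0.14 and 0.15 and all 16 intervals within 1.5-fold.

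Rmrp and Rpph1 were rare in every library. Rmrp had 55, 43 and 139 counts with MitoQ (1.73, 1.03 and 3.67 CPM) and 4, 1 and 1 counts in doxorubicin alone, against 0.626, 0.279 and 0.84 CPM in sham. Rpph1 had 45, 45 and 161 counts with MitoQ (1.41, 1.08 and 4.25 CPM) and 7, 4 and 2 counts in doxorubicin alone. Here MitoQ replicate 3 was the highest library for both, which it was not for Rn45s. Their log2 fold changes were 4.73 (interval 3.13 to 6.34) and 3.73 (interval 2.31 to 5.14), with adjusted p of 0.26 and 0.42, and with so few counts they depend on the small prior count of the fit. Each shares bases with a coding gene, Rmrp with Ccdc107 on the opposite strand and Rpph1 with Ccnb1ip1 on the same strand. Ccdc107 had 15.1, 16.1 and 14.9 CPM with MitoQ and 16.3, 14.4 and 14.8 CPM in doxorubicin alone.

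These 5 entries are the ones on which the count of calls depended. DESeq2 called Lars2, Mir6236, Rmrp, Rn45s and Rpph1, edgeR without MitoQ replicate 2 called 3 of them (Lars2, Mir6236 and Rn45s), and edgeR without a filter on low counts called Mir6236 and Rn45s. Over the 13 alternatives in which it was refitted, which do not include limma-voom, no filter or the sham libraries left out, the log2 fold change of Rn45s stayed between 2.78 and 3.72, the extremes being without MitoQ replicate 1 and without MitoQ replicate 2. Ribosomal RNA carry-over through poly(A) selection was not measured apart from these entries, and its part in the result was not tested.

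**Figure D2:**
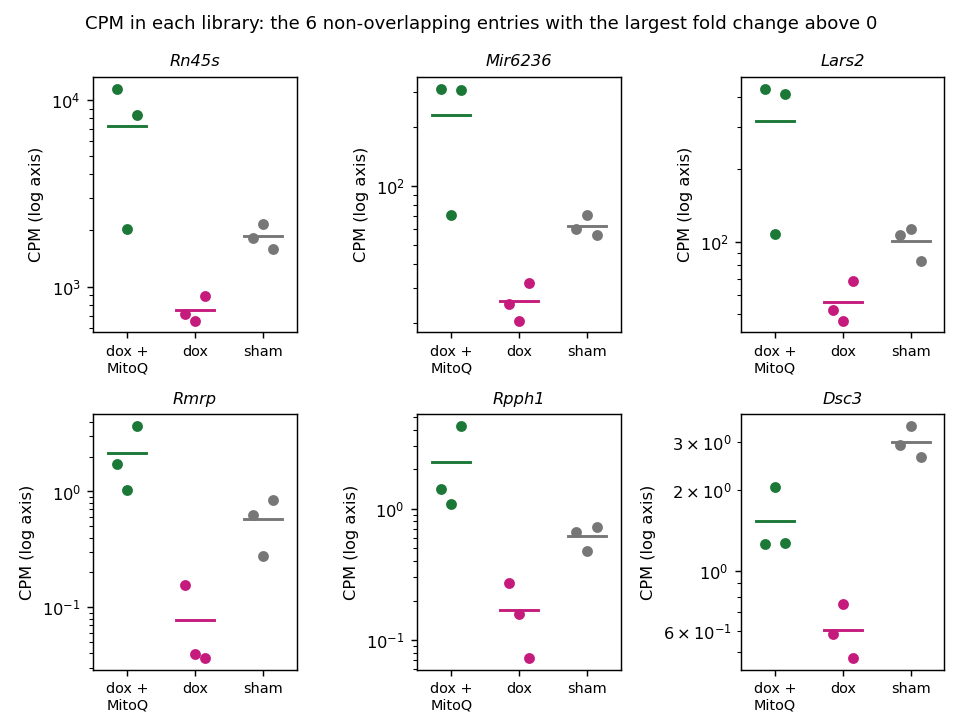
CPM (log axes) of the 6 entries with the largest fold change above 0 among genes that did not overlap and averaged 1 CPM or more, with a point per library and a line at the group mean, for doxorubicin plus MitoQ, doxorubicin and sham (3 libraries each). MitoQ replicate 2 is the lowest MitoQ library for the 5 entries linked to ribosomal RNA and the highest for Dsc3.

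Genes of the machinery that MitoQ is aimed at were nearly level. In coenzyme Q synthesis, 5 of 13 genes were higher and 8 lower, and all 13 intervals lay within 1.5-fold. In nuclear-coded respiratory complex I, 18 of 35 were higher and 17 lower, with all 35 intervals within 1.5-fold. In complexes II to V it was 21 higher and 19 lower of 40, with 39 within 1.5-fold. The balance of signs in both turned with 1 library: complex I had 26 higher and 9 lower without doxorubicin replicate 3 and 8 higher and 27 lower without doxorubicin replicate 2, and complexes II to V had 33 higher and 7 lower and 10 higher and 30 lower, with medians no farther from 0 than 0.04. The tricarboxylic acid cycle had 9 higher and 11 lower of 20, mitochondrial ribosomal proteins 34 higher and 42 lower of 76, and mitochondrial chaperones and proteases 5 higher and 10 lower of 15. The list medians were between -0.03 and 0.00 on the log2 scale for these 6 lists, beside 0 over all tested genes.

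Atp5b, the catalytic beta subunit of ATP synthase, had 1062, 1045 and 1067 CPM with MitoQ and 1058, 1042 and 1098 CPM in doxorubicin alone, a log2 fold change of -0.01 (interval -0.12 to 0.09). Ndufs1, an iron-sulphur subunit of complex I, had 136, 138 and 139.8 CPM with MitoQ and 133, 133 and 146 CPM in doxorubicin alone (0.00, interval -0.11 to 0.12). Coq9, a lipid-binding protein needed for coenzyme Q synthesis, differed by -0.04 (interval -0.19 to 0.11). Ppargc1a, the coactivator that drives mitochondrial biogenesis, and Tfam, which packages the mitochondrial genome, differed by 0.02 (interval -0.12 to 0.17) and -0.03 (interval -0.18 to 0.12).

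Antioxidant enzymes were nearly level in the median, though with more wide intervals. Of 26 genes for superoxide and peroxide removal 16 were higher and 10 lower, with 1 at an unadjusted edgeR p under 0.05. Of 25 targets of the oxidant-sensing factor Nrf2 13 were higher and 12 lower, also with 1, beside 3.3% of all genes. The medians were 0.03 and 0.02, and 21 of the 26 and 21 of the 25 intervals lay within 1.5-fold. Log2 fold changes ran from -0.09 to 0.64 and from -0.1 to 0.86. Sod1, the cytosolic superoxide dismutase, had 148, 156 and 158 CPM with MitoQ and 149, 135 and 155 CPM in doxorubicin alone (0.08, interval -0.05 to 0.20). Sod2, its counterpart in the mitochondrial matrix, had 161, 167 and 160.2 CPM with MitoQ and 158, 165 and 147 CPM in doxorubicin alone (0.05, interval -0.06 to 0.17). Log2 fold changes were 0.07 for catalase (Cat), 0.02 for the mitochondrial peroxiredoxin Prdx3, -0.07 for the lipid peroxidase Gpx4 and -0.07 for haem oxygenase Hmox1. Nqo1, a quinone reductase, had the widest interval among the antioxidant reference genes (-0.77 to 0.73), since doxorubicin replicate 2 was low at 3.41 CPM beside 7.46 and 7.98 CPM.

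Glrx3, a glutaredoxin of iron-sulphur handling, and Slc7a11, the cystine importer that feeds glutathione synthesis, were those 2 members, a share of the lists near that of all genes. Glrx3 had 3.39, 3.98 and 3.59 CPM with MitoQ and 2.91, 2.78 and 2.88 CPM in doxorubicin alone (0.36, unadjusted p = 0.021). Slc7a11 had 48.3, 47.2 and 36.7 CPM with MitoQ and 39.3, 37 and 20.3 CPM in doxorubicin alone (0.45, unadjusted p = 0.045), with doxorubicin replicate 3 the lowest, and the log2 fold change was 0.21 without that library.

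Among 27 tested genes of mitochondrial dynamics and mitophagy, 13 were higher and 14 lower, and the intervals of 26 lay within 1.5-fold. The exception was Park2, which encodes Parkin, the ubiquitin ligase that marks damaged mitochondria for removal. Park2 had 5.78, 5.35 and 6.54 CPM with MitoQ, against 7.81, 7.61 and 9.58 CPM in doxorubicin alone and 6.42, 5.87 and 6.16 CPM in sham. All 3 MitoQ libraries lay below all 3 doxorubicin libraries and near the sham libraries, with a log2 fold change of -0.50 (interval -0.78 to -0.22, unadjusted p = 0.0025, adjusted p = 0.97). It was -0.39 without doxorubicin replicate 3. Pink1, the kinase that recruits Parkin, had 385, 409.6 and 409 CPM with MitoQ and 379, 379.9 and 494 CPM in doxorubicin alone (-0.06, interval -0.26 to 0.15), and the fusion protein Mfn2 differed by -0.07 (interval -0.18 to 0.05).

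**Figure D3:**
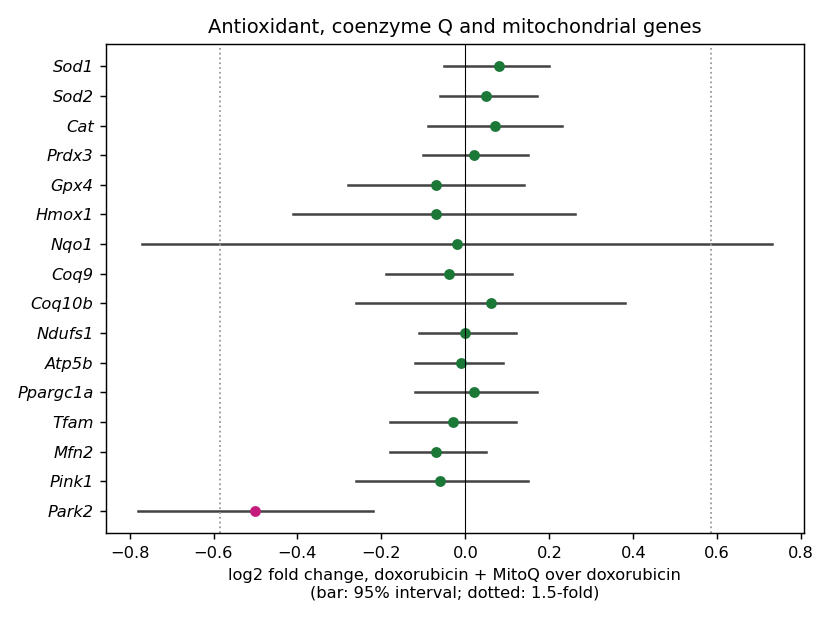
Log2 fold change of doxorubicin plus MitoQ over doxorubicin with its 95% interval for 16 antioxidant, coenzyme Q and mitochondrial genes, and dotted lines at 1.5-fold. The intervals of 14 genes lie between the dotted lines, that of Nqo1 crosses both, and that of Park2 lies wholly below 0.

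Chaperones of the endoplasmic reticulum were the coding group with the most non-overlapping members. These proteins fold and quality-check secreted and membrane proteins, and their genes are induced together in the unfolded protein response through the factors ATF6 and XBP1. Of 34 tested genes 25 were higher with MitoQ and 9 lower, 15 did not overlap with MitoQ higher and 0 with MitoQ lower, beside 4.73% and 4.98% of all genes. At an unadjusted p under 0.05 there were 7, all higher, beside 1.88% of all genes higher and 1.43% lower. The median log2 fold change was 0.08, beside 0 over all tested genes, and it ranged from 0.07 to 0.12 over the 14 alternatives in which lists were refitted. None of the 34 had an adjusted p under 0.05.

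Hspa5, the master chaperone BiP, had 305, 298 and 272 CPM with MitoQ, against 244, 232 and 190.4 CPM in doxorubicin alone and 224, 336 and 322 CPM in sham. Its log2 fold change was 0.39 (interval 0.08 to 0.70, unadjusted p = 0.017). Sdf2l1, a BiP partner, had 12.2, 13.2 and 12.3 CPM with MitoQ and 10.1, 7.53 and 7.4 CPM in doxorubicin alone (0.59, interval 0.16 to 1.01). The disulphide isomerase Pdia4 had 60, 54.2 and 55 CPM with MitoQ and 47.9, 42.7 and 36.8 CPM in doxorubicin alone (0.41, interval 0.09 to 0.73). In all 3 the groups did not overlap, and the first sham library lay within the doxorubicin range while the other sham libraries lay within or above the MitoQ range.

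The remaining genes at an unadjusted p under 0.05 are named here after their values were seen. Calr, the lectin chaperone calreticulin, had 464, 507 and 484 CPM with MitoQ and 435, 447 and 343 CPM in doxorubicin alone (0.25). Dnajc3, a BiP co-chaperone, had 77.8, 73.1 and 72.2 CPM with MitoQ and 69, 60.4 and 60.6 CPM in doxorubicin alone (0.23). The isomerases Pdia3 and Pdia6 differed by 0.19 and 0.33. Doxorubicin replicate 3 was the lowest of the 6 libraries for Hspa5, Sdf2l1, Pdia4, Pdia3, Calr and Pdia6, but not for Dnajc3. It had 343 CPM of Calr and 68.6 CPM of Pdia6. Without it the list still had 25 members higher and 9 lower, with a median of 0.08. Single members were smaller without it: Hspa5 differed by 0.29, Calr by 0.14, Pdia6 by 0.18 and Hsp90b1, a chaperone of secreted proteins, by 0.09, beside 0.21 with it. Of the stress sensors, Atf6, Ern1 and Eif2ak3 differed by 0.01, -0.01 and 0.04. Xbp1, the factor that Ern1 activates by splicing, differed by 0.25 (interval -0.02 to 0.51).

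Promoter windows from 250 bases before to 50 after the start of each gene (RefSeq, GRCm38.p6) were searched on both strands for the endoplasmic reticulum stress element, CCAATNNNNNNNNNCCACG. It occurred in 0.119% of 32851 windows. Of the 34 chaperone and unfolded protein response genes 25 had a window, and 9 of these held the element: Calr, Canx, Creld2, Derl3, Dnajc3, Hsp90b1, Hspa5, Pdia6 and Syvn1. Of those 9, 7 did not overlap with MitoQ higher, with a median log2 fold change of 0.25, beside 5 of the 16 without the element, with a median of 0.06. Of the 10 other tested genes with the element in their window, 0 did not overlap with MitoQ higher, and the median was -0.01. A shorter arrangement of the same sites, ATTGGNCCACG, was in 0.0365% of windows and in 2 of the list, Dnajb11 (0.07) and Herpud1 (0.04). Syvn1, which holds the longer element, differed by -0.02 and its window is not shown. Whether the element has a part in these values was not tested. The windows below share the longer element, in capitals, and all belong to list members that did not overlap with MitoQ higher. That of Hspa5 is whole (chr2:34771840-34772139, plus strand). The others are stretches around the element: Hsp90b1, with 2 matches on opposite strands (chr10:86705503-86705686, minus strand), Calr (chr8:84847045-84847123, minus strand), Pdia6 (chr12:17266461-17266539, plus strand) and Dnajc3 (chr14:118937797-118937875, plus strand).
Hspa5: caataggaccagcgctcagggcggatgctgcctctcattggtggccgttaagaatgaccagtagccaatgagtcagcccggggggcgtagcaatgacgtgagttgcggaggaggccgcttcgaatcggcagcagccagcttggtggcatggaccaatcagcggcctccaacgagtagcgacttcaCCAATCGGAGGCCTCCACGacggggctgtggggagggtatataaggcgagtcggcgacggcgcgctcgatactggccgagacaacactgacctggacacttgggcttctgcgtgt
Hsp90b1: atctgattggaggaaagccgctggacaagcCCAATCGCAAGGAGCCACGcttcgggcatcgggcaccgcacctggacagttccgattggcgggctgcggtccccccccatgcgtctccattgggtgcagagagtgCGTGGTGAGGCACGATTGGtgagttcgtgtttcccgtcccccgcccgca
Calr: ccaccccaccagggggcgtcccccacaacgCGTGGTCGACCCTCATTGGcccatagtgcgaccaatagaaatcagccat
Pdia6: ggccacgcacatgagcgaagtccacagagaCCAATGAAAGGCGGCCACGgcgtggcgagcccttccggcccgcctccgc
Dnajc3: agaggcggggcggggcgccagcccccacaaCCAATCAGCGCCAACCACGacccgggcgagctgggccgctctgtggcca

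**Figure D4:**
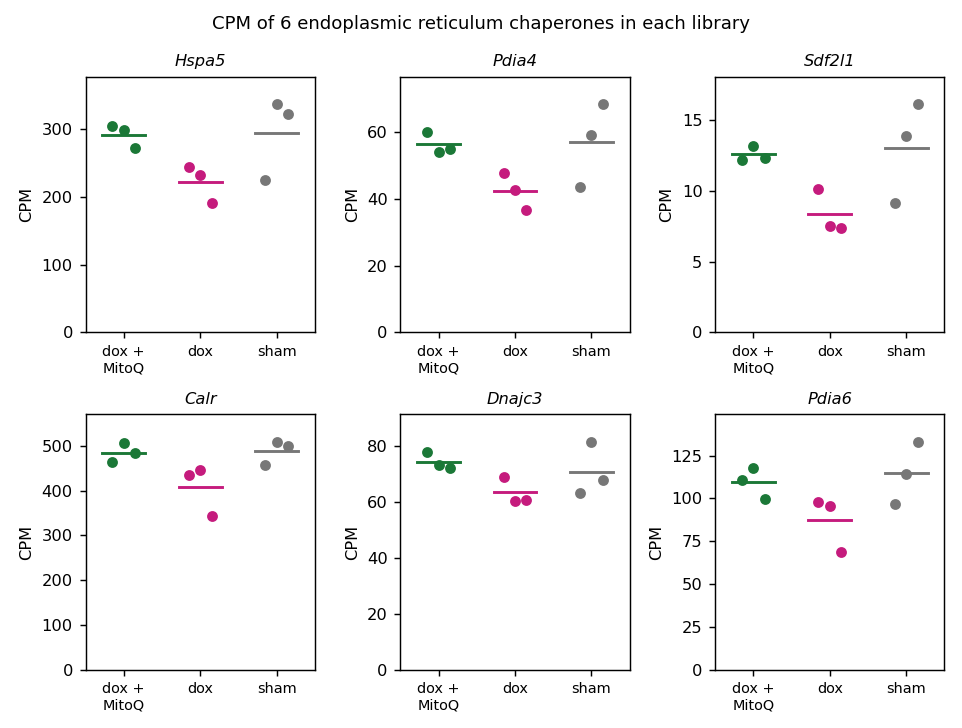
CPM of 6 chaperones of the endoplasmic reticulum, with a point per library and a line at the group mean, for doxorubicin plus MitoQ, doxorubicin and sham (3 libraries each). In all 6 genes the 3 MitoQ libraries lie above the 3 doxorubicin libraries. The sham libraries spread across both, except for Calr, where all 3 lie above the doxorubicin libraries.

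Other stress programmes gave no call. The integrated stress response, led by ATF4 and set off among others by mitochondrial faults, had 9 of 20 genes higher and 11 lower, with a median of -0.01, and its effector Ddit3 had 14.4, 16.2 and 14.8 CPM with MitoQ and 17.2, 17.5 and 15 CPM in doxorubicin alone. Cytosolic heat shock genes had 17 of 22 higher and 5 lower with a median of 0.09, which was 0.01 without doxorubicin replicate 3. Cryab, a small heat shock protein, had 94.8, 115 and 114 CPM with MitoQ and 86.2, 98.1 and 64.5 CPM in doxorubicin alone (0.38, unadjusted p = 0.022), and the log2 fold change was 0.23 without doxorubicin replicate 3.

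Glucocorticoid-responsive genes leaned the other way, and the size of that depended on single libraries, doxorubicin replicate 3 most. Of 29 tested, 4 were higher and 25 lower with MitoQ, 5 of the lower at an unadjusted p under 0.05 (1.43% of all genes), and the median log2 fold change was -0.26. Without doxorubicin replicate 3 it was -0.04, with 11 higher and 18 lower. The median was also nearer 0 without MitoQ replicate 1, at -0.1, with 9 higher and 20 lower. Plin4, a lipid droplet protein, had 4.87, 2.5 and 2.77 CPM with MitoQ, against 1.98, 2.14 and 54.8 CPM in doxorubicin alone and 1.6, 3.19 and 4.52 CPM in sham. Its log2 fold change of -2.56 turned to 0.70 without doxorubicin replicate 3. Hif3a, an inhibitory hypoxia factor, had 3.42, 3.14 and 3.45 CPM with MitoQ and 3.57, 3.21 and 30 CPM in doxorubicin alone. The same library was high for the phospholyase Etnppl, which had 77.6 CPM there and 11.7 and 15.5 CPM in doxorubicin replicates 1 and 2, a gene named after its values were seen.

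In 2 members, both lower with MitoQ, the groups did not overlap (4.98% of all genes). Angptl4, a secreted inhibitor of lipoprotein lipase, had 1.32, 1.92 and 1.21 CPM with MitoQ, against 2.06, 2.34 and 3.42 CPM in doxorubicin alone and 2.46, 2.15 and 2.84 CPM in sham (-0.81, interval -1.36 to -0.25, unadjusted p = 0.0086). Mt2, a metallothionein that binds metals and scavenges oxidants, had 71.8, 90 and 82.1 CPM with MitoQ and 92.6, 92.2 and 132 CPM in doxorubicin alone (-0.38, interval -0.69 to -0.07). Without doxorubicin replicate 3 Mt2 differed by -0.18 and Angptl4 by -0.56. Their MitoQ libraries all lay below their doxorubicin libraries. Fkbp5, a co-chaperone of the glucocorticoid receptor, had 73.1, 66.4 and 67.8 CPM with MitoQ and 62.3, 70 and 120.1 CPM in doxorubicin alone (-0.29, interval -0.72 to 0.15), and differed by 0.06 without doxorubicin replicate 3.

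**Figure D5:**
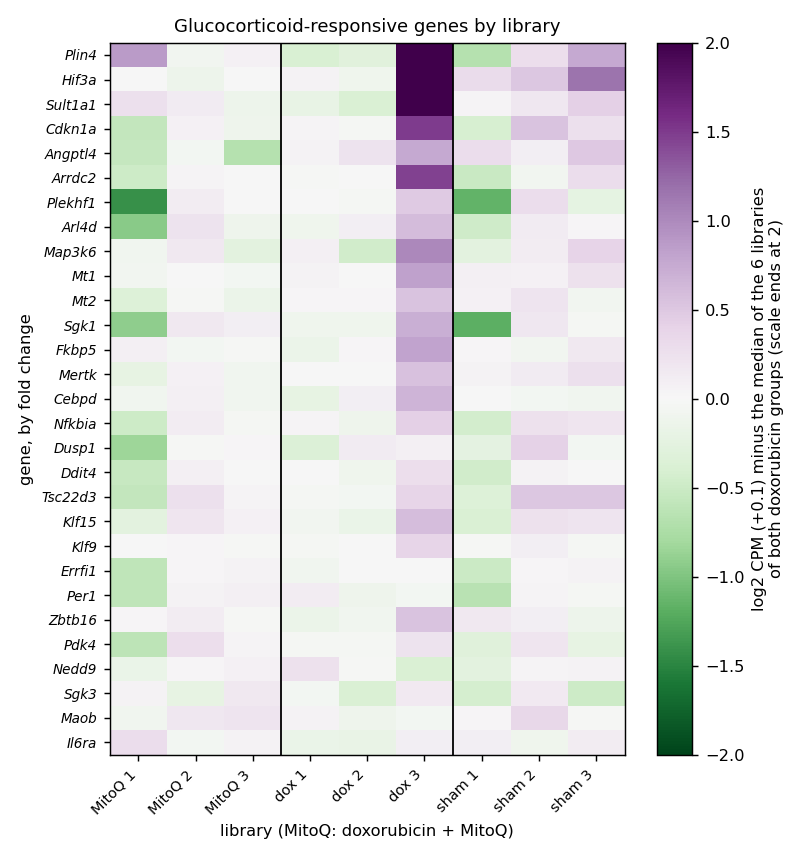
Each of 29 glucocorticoid-responsive genes (rows, by fold change) in each of 9 libraries (columns), coloured by log2 CPM minus the median of the 6 libraries of both doxorubicin groups, purple above and green below. Doxorubicin replicate 3 is the darkest purple column, and Plin4 in it stands at 54.8 CPM.

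Genes of the DNA damage response, which doxorubicin sets off through topoisomerase breaks, gave no call. Of 28 tested targets of p53, 10 were higher and 18 lower (median -0.07), and of 36 DNA repair genes 12 were higher and 24 lower (median -0.06, 0.01 without doxorubicin replicate 3). Cdkn1a, the cell cycle inhibitor p21, had 6.85, 10.7 and 9.41 CPM with MitoQ and 10.5, 9.99 and 29.1 CPM in doxorubicin alone, so that its log2 fold change of -0.88 (unadjusted p = 0.048) came with the same high library. Mdm2, the p53 antagonist, differed by -0.04 (interval -0.24 to 0.16), and Top2b, the type II topoisomerase of neurons, had 123, 126 and 121 CPM with MitoQ and 119, 121 and 121 CPM in doxorubicin alone (0.04, interval -0.08 to 0.15). None of the 36 repair genes had an unadjusted p under 0.05. Ercc5, an endonuclease of nucleotide excision repair that is outside that list and comes from the ranking of all genes, did not overlap, at 24.7, 25.1 and 24.3 CPM with MitoQ and 27.1, 30.4 and 29.9 CPM in doxorubicin alone (-0.24, unadjusted p = 0.0054).

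Lists of reactive astrocytes and microglia had more members higher than lower with MitoQ, while the general astrocyte list did not stand away from 0. Gfap, the intermediate filament of astrocytes, had 491, 513 and 463 CPM with MitoQ, against 419, 405 and 350.2 CPM in doxorubicin alone and 482, 438 and 486 CPM in sham. The groups did not overlap and the log2 fold change was 0.32 (interval 0.16 to 0.49, unadjusted p = 0.0014, adjusted p = 0.97). Of 25 tested genes of reactive astrocytes 18 were higher and 7 lower (median 0.11), among them Ggta1 at 0.43, which was 0.28 without MitoQ replicate 2. Without doxorubicin replicate 1 the list median was 0.21, with 17 higher and 8 lower. Without doxorubicin replicate 2 it was 0.09, with 14 higher and 11 lower. Genes of astrocytes in general had 10 of 18 higher and 8 lower (median 0.01), and the glutamate transporter Slc1a2, named after its values were seen, differed by -0.01 (interval -0.20 to 0.18).

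Microglial genes were higher in 23 of 24, lower in 1, by a median of 0.14, and without doxorubicin replicate 3 by 0.07 with 22 higher and 2 lower. Their summed level was 768 to 842 CPM with MitoQ, 707 to 763 CPM in doxorubicin alone and 788 to 838 CPM in sham. P2ry12, the purinergic receptor of resting microglia, had 41.2, 40.6 and 35.7 CPM with MitoQ, against 33.5, 35.6 and 31.3 CPM in doxorubicin alone and 42.4, 37.6 and 38.4 CPM in sham (0.23, interval 0.05 to 0.40, unadjusted p = 0.017). Gpr34, a lysophosphatidylserine receptor, differed by 0.27 and the protease Ctss by 0.15. Aif1, which encodes IBA1, had an interval of -0.19 to 0.60.

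Complement genes had 11 of 16 higher and 5 lower (median 0.18), but the median was 0.06 without doxorubicin replicate 2 and 0.08 without MitoQ replicate 3. C4b had 70.3, 67 and 72.8 CPM with MitoQ, against 49.4, 49.8 and 68.3 CPM in doxorubicin alone and 52.2, 44.1 and 51 CPM in sham (0.33, unadjusted p = 0.018). C3, the central component, had 4.21, 4.01 and 3.8 CPM with MitoQ and 2.76, 1.98 and 3.28 CPM in doxorubicin alone (0.58, unadjusted p = 0.046). For C4b the doxorubicin libraries split, with replicate 3 inside the MitoQ range, and the log2 fold change was 0.50 without it.

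Neuronal lists differed by small amounts. CA3 and CA2 genes had 3 of 18 higher and 15 lower (median -0.13, -0.08 without MitoQ replicate 2 or doxorubicin replicate 3, -0.22 without MitoQ replicate 1), and Cpne4 of CA3 had 131, 109 and 121 CPM with MitoQ and 132, 138 and 136 CPM in doxorubicin alone (-0.17, interval -0.36 to 0.02). CA1 genes had 10 of 12 higher and 2 lower (median 0.09, 0.05 without doxorubicin replicate 1), with Mpped1 at 248, 264 and 246 CPM with MitoQ and 238, 238 and 219 CPM in doxorubicin alone (0.12, unadjusted p = 0.034). Dentate granule genes had 8 of 19 higher and 11 lower (median -0.01), which turned to 17 higher and 2 lower without doxorubicin replicate 3 and 2 higher and 17 lower without MitoQ replicate 2. Genes of presynaptic release had 8 of 35 higher and 27 lower, and postsynaptic scaffold genes 7 of 31 higher and 24 lower, with medians of -0.04 (-0.01 without MitoQ replicate 2) and -0.06 and 34 and 30 of their intervals within 1.5-fold. Bdnf, the neurotrophin, differed by 0.00 (interval -0.26 to 0.26), and Dcx, a marker of new neurons, by -0.07 (interval -0.40 to 0.26).

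Tissue at the edge of the dissection varied between libraries of the same group. All 19 choroid plexus genes were higher with MitoQ (median 0.53), with 0 of them non-overlapping, and their summed level ran from 2255 to 7559 CPM with MitoQ, 373 to 6064 CPM in doxorubicin alone and 348 to 7391 CPM in sham. Ttr, the transport protein secreted by that epithelium, had 3245, 1213 and 4869.7 CPM with MitoQ and 3777, 35.8 and 1975 CPM in doxorubicin alone, with doxorubicin replicate 2 nearly free of it. Without that library the list median was 0.03. Fibroblast and meningeal genes had 20 of 21 higher and 1 lower (median 0.39, 0.21 without doxorubicin replicate 2), with a summed level of 509 to 636 CPM with MitoQ, 304 to 582 CPM in doxorubicin alone and 411 to 787 CPM in sham. Ogn, a small proteoglycan of that list, did not overlap, at 8.1, 9.17 and 7.12 CPM with MitoQ and 4.86, 5.04 and 5.9 CPM in doxorubicin alone (0.63, interval 0.29 to 0.96). The part of these tissues in the glial, complement and chaperone values was not tested gene by gene. With the choroid plexus level as a covariate, the chaperone and microglial list medians were 0.08 and 0.17.

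The remaining genes at the head of the ranking belonged to no list described above. Dsc3, a desmosomal cadherin, had 1.26, 2.04 and 1.27 CPM with MitoQ, against 0.583, 0.753 and 0.474 CPM in doxorubicin alone and 2.93, 3.44 and 2.64 CPM in sham (1.34, interval 0.72 to 1.96, unadjusted p = 0.00065). Its MitoQ libraries lay between those of the other groups, with no overlap on either side. Grem1, a BMP antagonist, had 2.92, 3.5 and 2.93 CPM with MitoQ and 2.06, 1.98 and 2 CPM in doxorubicin alone (0.63). Abca8a, a lipid transporter, and the protocadherin Pcdhb12 were higher by 0.48 and 0.46.

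On the lower side, Ppih, a cyclophilin of the spliceosome, had 2.04, 1.75 and 1.71 CPM with MitoQ and 2.84, 3.01 and 2.7 CPM in doxorubicin alone (-0.64). Dhtkd1, a mitochondrial dehydrogenase of lysine breakdown, had 5.68, 4.46 and 4.9 CPM with MitoQ, against 6.68, 7.18 and 6.81 CPM in doxorubicin alone and 5.24, 4.47 and 5.24 CPM in sham (-0.46). Cspg4, the NG2 proteoglycan of oligodendrocyte precursors and pericytes, and Col4a1, a basement membrane collagen, were lower by 0.26 and 0.34 on the log2 scale. All had adjusted p of 0.97. The other genes of this ranking were 1700026D08Rik on the higher side and Rsrp1, Tnip2, AI118078 and Stx3 on the lower side, all at an unadjusted p under 0.01, and among non-overlapping genes the largest lower folds besides Angptl4 were in Arhgef33, Gipc3, Rgag1, Spx and Hcrtr1, between -0.85 and -0.71.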

How the data were processed

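The authors deposited raw read counts per gene symbol. STAR, DESeq2 and the mm10 build are named, without their roles, per the submitters' processing notes. No source used here states versions, the counting program, strandedness or gene models. Of 24421 entries, 27 carry a date in place of a symbol (0.309% to 0.322% of counts per library) and were left out, which leaves 24394 genes, 4618 of them without a count. The deposited counts were filtered with filterByExpr, TMM-scaled and tested with edgeR 4.0.16 (R 4.3.3) in 1 quasi-likelihood fit of all 9 libraries, contrast doxorubicin plus MitoQ minus doxorubicin, with Benjamini-Hochberg adjustment. Intervals are 95%, from the SE (absolute log2 fold change over the square root of F) and the t quantile. The common biological coefficient of variation was 11.4% and the median SE 0.104. An exact permutation test of 3 against 3 cannot go below p = 0.1, so none is given. Counts carry counting error as well as library error, and a floor of 3 counts is 0.0728 to 0.122 CPM per library.

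Genes named are the 12 with the smallest p and the 6 with the largest fold per direction among non-overlapping genes averaging 1 CPM or more, fixed reference genes, and the 3 members with the smallest p per list in its majority direction; others are said to be named after their values were seen. Lists (51) are described by counts and medians, without a set test. The comparison and the lists were chosen with earlier results of these data known. Alternatives were DESeq2 1.42.0, limma-voom (limma 3.58.1), other scalings, filters, thresholds, thinning, leaving out each library and a replicate block. The test was checked on simulated data. Some items are not reported here.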

Additional observations from a re-analysis of the deposited data

How the results depend on the processing

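The count of called genes was 0 under edgeR and stayed 0 under median-of-ratios scaling, a filter of 1 CPM in 3 libraries, a threshold of 0.1, only the 6 libraries compared, thinning to the smallest library, removal of the listed ribosomal RNA linked genes, the choroid plexus covariate and limma-voom. The ribosomal RNA linked genes removed did not include Mir6236. With only the 6 libraries compared the smallest adjusted p of edgeR was 0.945, beside 0.265 in the main fit. The count of calls was 2 with no filter on low counts and 5 with DESeq2, all higher with MitoQ. Leaving out each of the 9 libraries in turn gave 0 to 3 calls, with 3 only without MitoQ replicate 2. With the replicate block it was 0, with a smallest adjusted p of 0.149. Deviations from the group mean correlated at -0.0389, 0.465 and 0.0374 between same-numbered libraries of both groups. Between libraries of different number they correlated at -0.387 to 0.403. With 3 libraries per group this cannot decide whether the numbers pair the samples, which no source used here states. The number of genes whose interval lay within 1.5-fold was 11677 and ranged from 10901 to 11852 over 17 alternatives. Of 51 lists, 13 had a median beyond 0.1 in either direction, and 9 to 19 did over 18 alternatives. Several single-gene fold changes crossed 0, among them Sult1a1, Fkbp5, Pink1 and Nqo1. Plin4 ranged from -3.09 to 0.7 over the libraries left out and was 0.7 without doxorubicin replicate 3. Of the list medians, 702 of the values under an alternative moved by less than the spread between replicates and 11 by more; the cause was not tested. At these depths genes under about 1 CPM have wide intervals.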

Other observations

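Further gene groups were described that no comparison above covers. Interferon-stimulated genes had 20 of 26 higher with MitoQ and 6 lower (median 0.10, 0.02 without doxorubicin replicate 3 or without MitoQ replicate 3). MHC class I genes had 9 of 12 higher and 3 lower, which turned to 4 higher and 8 lower without MitoQ replicate 3, with H2-K1 at 24.8, 22.3 and 25.5 CPM with MitoQ and 21.6, 20.3 and 19.9 CPM in doxorubicin alone (0.23, unadjusted p = 0.021). Oligodendrocyte genes had 12 of 18 higher and 6 lower (median 0.08, 0.00 without doxorubicin replicate 3). Among insulin-like growth factor genes, Igfbp5 had 293, 355 and 286 CPM with MitoQ and 284, 281 and 239 CPM in doxorubicin alone (0.22, unadjusted p = 0.035). Cytosolic ribosomal proteins had 33 of 76 higher and 43 lower (median -0.01, with 56 higher and 20 lower without doxorubicin replicate 3 and 15 higher and 61 lower without doxorubicin replicate 2), beside the large differences in Rn45s. The clock-output factor Hlf had 176, 209 and 171 CPM with MitoQ and 155, 159.6 and 166 CPM in doxorubicin alone (0.21, unadjusted p = 0.019), while the circadian clock list had 12 of 21 higher and 9 lower (median 0.00).

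Immediate early genes, which follow neuronal firing and handling, set 1 MitoQ library apart. Fos had 7.16, 38.7 and 34.9 CPM with MitoQ, against 28.4, 42.7 and 20.9 CPM in doxorubicin alone and 21.8, 42.2 and 24.8 CPM in sham. Egr2, named after its values were seen, had 1, 11.8 and 10.7 CPM with MitoQ and 8.04, 10.7 and 4.96 CPM in doxorubicin alone. Of 28 tested members 13 were higher and 15 lower with MitoQ, with a median of -0.02 that was 0.12 without MitoQ replicate 1 and -0.21 without MitoQ replicate 2. Slc17a6, the vesicular glutamate transporter of thalamus and other subcortical regions, had 13.2, 19 and 13.4 CPM with MitoQ, against 9.59, 12.5 and 8.09 CPM in doxorubicin alone and 22.1, 26.7 and 20.4 CPM in sham (0.60, unadjusted p = 0.0093), and 10 of 18 genes of thalamus and habenula were higher, 8 without doxorubicin replicate 2 or 3.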
